A study of Caenorhabditis elegans with 4 samples.

Results

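The regions described here are the EPC-1 peaks on chromosome II of Caenorhabditis elegans, taken as every row of the authors' 2 peak lists that lies on that chromosome. Replicate 1 held 549 of its 3455 peaks there (15.9%) and replicate 2 held 460 of its 2833 (16.2%). The lists come from chromatin immunoprecipitation followed by sequencing (ChIP-seq) with an EPC-1 antibody on whole L3 larvae of N2, the laboratory wild-type strain, with no mutation, transgene or drug named in the labels. Per the labels, the chromatin was crosslinked with EGS, an amine-reactive linker, and then with EGS plus formaldehyde, whereas the growth text of the same samples gives formaldehyde only. The series has 4 samples, of which 2 are these immunoprecipitations and 2 are input DNA, and the inputs were not analysed here. No label states whether separate cultures were used, so the spread between the replicates may be technical. Whole larvae mix all tissues, and a peak present in a few cells cannot be told apart from a weak peak present in many. Read depth was unknown.

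EPC-1 corresponds in the worm to Enhancer of Polycomb, a scaffold subunit of the TIP60 (NuA4) type of histone acetyltransferase complex. In yeast and mammals that complex acetylates the tails of histones H4 and H2A, mostly near active promoters, and the Enhancer of Polycomb subunit holds the catalytic subunit on the nucleosome. C. elegans autosomes have a gene-rich centre with little meiotic recombination, between arms that recombine more and hold more repeats. No gene is named here, because the annotation used belongs to another genome build than the peaks.

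The peaks of chromosome II spanned 15.2 Mb in WS190 coordinates, from 18067 to 15263880 over both lists. Replicate 1 had 36.01 peaks per Mb and replicate 2 had 30.2, a mean of 33.1 ± 4.13 (SD, n = 2). Of the 6 chromosomes, II ranked below I and III (42.1 to 50.7) and above IV, V and X (14.5 to 34.3) in each list. Peaks covered 1020 kb of chromosome II in replicate 1 (6.69% of the span) and 957 kb in replicate 2 (6.28%). The lists had 827 kb in common, which made up 81.03% of the replicate 1 peak bases and 86.4% of the replicate 2 peak bases.

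Most chromosome II peaks were found in both lists. Of the 549 peaks of replicate 1, 443 overlapped a replicate 2 peak by at least 1 bp (80.7%, exact Clopper-Pearson 95% interval 77.1 to 83.9), against 79.0% of replicate 1 peaks over all chromosomes. Of the 460 peaks of replicate 2, 435 overlapped a replicate 1 peak (94.6%, interval 92.1 to 96.5), against 95.1% over all chromosomes. Both shares were close to the share of the whole list. The intervals cover counting error only.

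The arms of chromosome II were unequal. When the span was cut into 3 equal parts, the left part (18067 to 5100004) held 127 peaks of replicate 1 and 108 of replicate 2. The central part (5100005 to 10181942) held 230 and 186, and the right part (10181943 to 15263880) held 192 and 166. The left part thus had 23.1% of the chromosome's peaks in replicate 1 (exact interval 19.7 to 26.9) and 23.5% in replicate 2 (19.7 to 27.6), where equal spread would put 33.3%. Both intervals lie below that value. The centre had 41.9% (37.7 to 46.1) and 40.4% (35.9 to 45.1), above an equal share in both lists, and the right part had 35.0% (31.0 to 39.1) and 36.1% (31.7 to 40.7), which include it. These intervals treat each peak as an independent draw. Counts per 500 kb bin had a variance of 2.33 and 2.18 times their mean, so the intervals may be too narrow. They describe the shares and are no test of equal spread. Right and left stood in a ratio of 1.51 in replicate 1 and 1.54 in replicate 2, a mean of 1.52 ± 0.018 (SD, n = 2). The lists share most of their peaks, so the closeness of these values is no measure of how far the ratio departs from 1. Counted in bases the ratio was larger, at 1.76 and 1.88, and left peaks were also narrower. In both lists the median position of a peak lay right of the middle of the span, at 55.3% and 55.9% of its length.

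Among the 6 chromosomes, II had the highest right-to-left ratio of peak counts in both lists. Chromosome III came next with 1.43 and 1.34, and X followed with 1.18 and 1.19. Chromosome IV was nearly even at 0.99 and 0.98, chromosome I leaned left at 0.85 and 0.87, and V gave 0.82 and 1.03. The left part of II also held the smallest share of its chromosome's peaks of any left part. II and III were near each other, and outside the highest score quartile III had the higher ratio in replicate 1. The difference between chromosomes was not tested, since each contributes 1 value per list.

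**Figure D1:**
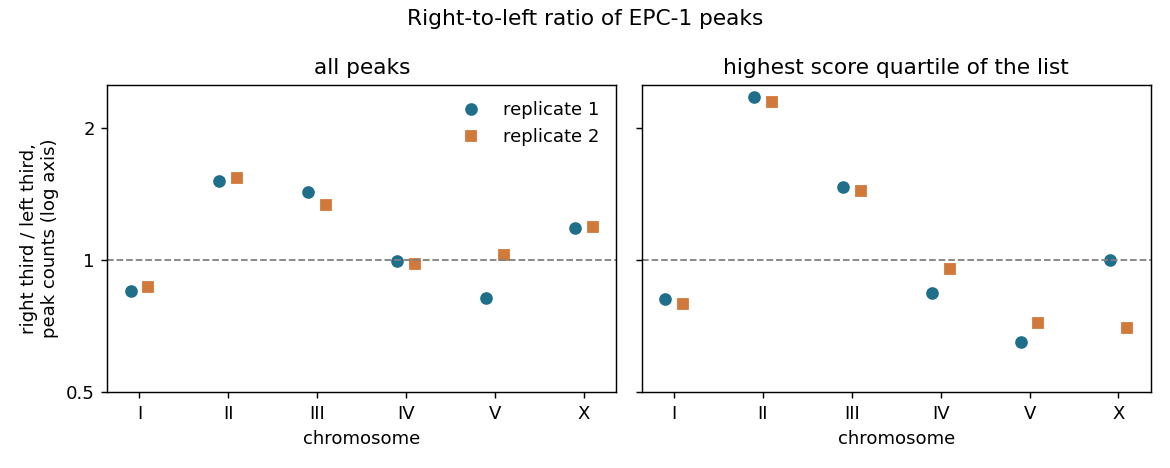
Right-to-left ratio of EPC-1 peak counts (vertical, log axis) on each chromosome (horizontal) for all peaks, left panel, and for the highest score quartile of each list, right panel, with circles for replicate 1, squares for replicate 2 and a dashed line at 1. Chromosome II is highest in both panels, at 1.51 and 1.54 for all peaks and 2.35 and 2.29 in the highest quartile.

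By score quartile, the imbalance was greatest in the highest. The score is the authors' own value per peak, its scale is not stated, and it serves here for ranks inside each list and for describing matched peaks. In the highest quartile of each whole list, chromosome II had 20 left peaks, 67 central and 47 right in replicate 1, and 17, 56 and 39 in replicate 2. The right-to-left ratio there was 2.35 and 2.29, and 50% of these peaks were central in each list. Peaks of that quartile at or above 3100 were less unequal, with 6 left and 10 right in replicate 1 and 6 and 8 in replicate 2. Over the other quartiles the ratio was 1.36 and 1.40, against 1.42 and 1.30 on chromosome III. There II was the highest of the chromosomes in replicate 2 only. The lowest quartile split the replicates, with 25 left and 50 right peaks in replicate 1 (a ratio of 2.0) but 30 and 43 in replicate 2 (1.43). The middle quartiles ranged from 1.12 to 1.56. Peaks of the highest quartile made up 15.7% of the left peaks in both lists (exact intervals 9.89 to 23.3 and 9.45 to 24.0), against 29.1% and 30.1% in the centre (23.3 to 35.5 and 23.6 to 37.2) and 24.5% and 23.5% on the right. The intervals of left and centre were just apart in replicate 1 and overlapped at their edges in replicate 2, and those of left and right overlapped in both. Median scores were 208, 273 and 242 from left to right in replicate 1 and 168, 291 and 235 in replicate 2.

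**Figure D2:**
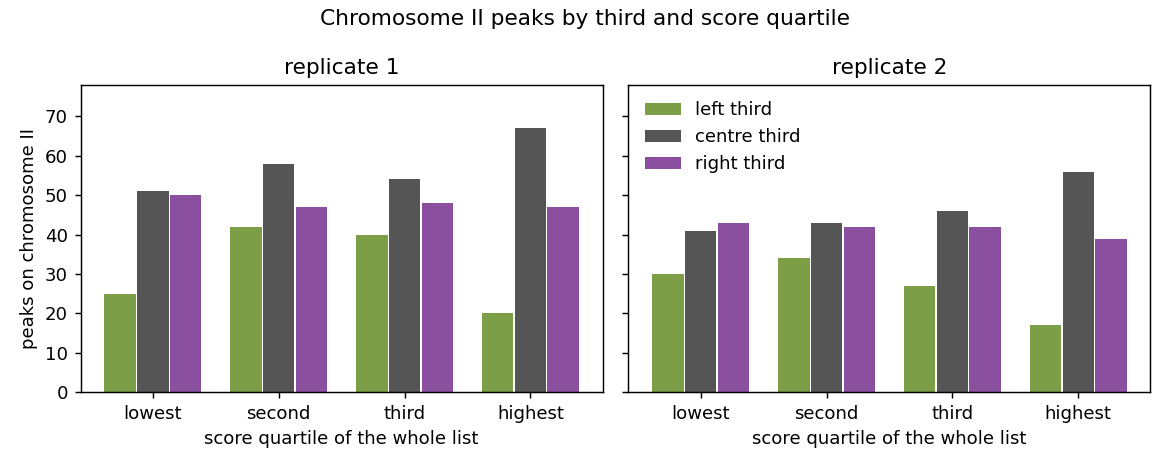
Number of chromosome II peaks (vertical) in the left, central and right part of the span, by score quartile of the whole list (horizontal), with 1 panel per replicate. In the highest quartile the left part has 20 and 17 peaks and the centre 67 and 56.

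In steps of 500 kb along the chromosome, the low counts of the left arm did not begin at its tip. The first bin held 18 peaks in replicate 1 and 17 in replicate 2. The next 8 bins, from 518067 to 4518066, held 1 to 16 peaks in replicate 1 and 2 to 13 in replicate 2. The bin after them, from 4518067 to 5018066, held 22 and 21. From there through 10018066 no bin held fewer than 17 peaks in replicate 1 or 14 in replicate 2, and the medians over these 11 bins were 22 and 18, against 11 and 8.5 over the 8 sparse bins. This stretch was picked after the counts were seen, so its low level follows from the choice and its size is given as a description. It carried 81 peaks in replicate 1, or 20.3 per Mb, and 65 in replicate 2, or 16.3 per Mb. The chromosome right of it carried 41.9 and 35.2 per Mb, 2.07 and 2.16 times as many. The right arm varied too, with full bins of 13 to 28 peaks in replicate 1 and 11 to 26 in replicate 2.

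**Figure D3:**
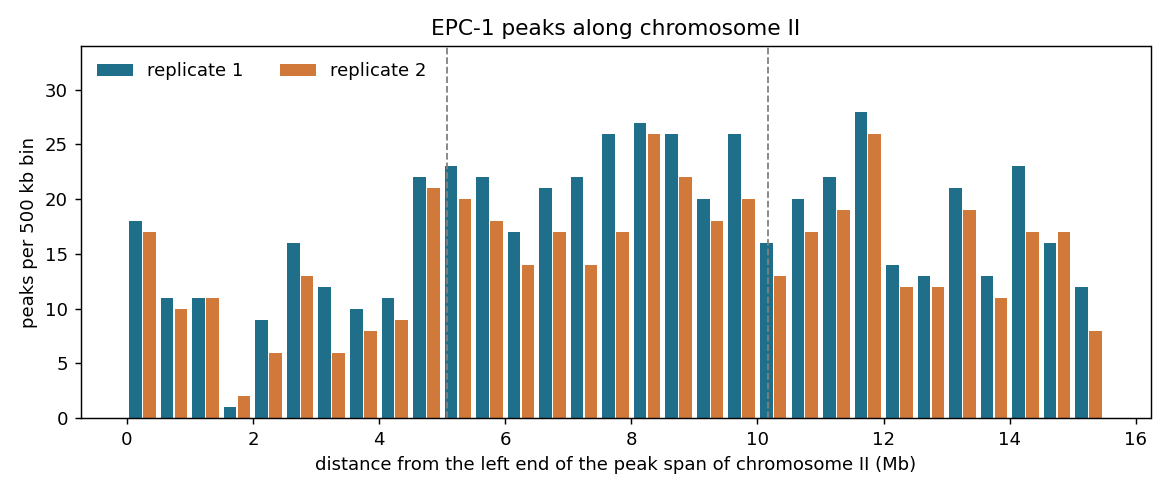
Peaks per 500 kb bin (vertical) by distance from the left end of the peak span of chromosome II in Mb (horizontal), with paired bars for replicates 1 and 2 and dashed lines between the 3 equal parts. The last, shorter bin is included. Counts are low from the second to the ninth bin, with a minimum of 1 and 2 peaks, and rise to 22 and 21 in the tenth.

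Inside the sparse stretch 57 of 65 replicate 2 peaks had a partner (87.7%, exact interval 77.2 to 94.5), against 362 of 378 (95.8%, 93.2 to 97.6) to its right. In replicate 1 the shares were 59 of 81 (72.8%, 61.8 to 82.1) and 368 of 450 (81.8%, 77.9 to 85.2). In each list the intervals of stretch and rest overlap. Median scores in the stretch were 192 in replicate 1, where the rest had 257, and 158 in replicate 2, where the rest had 260. The part of the lower scores in the sharing was not tested. The stretch nevertheless held 2 peaks per list at or above 3100, a score at which many peaks are tied and which few exceed.

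The emptiest full bin ran from 1518067 to 2018066, with 1 peak in replicate 1 and 2 in replicate 2. The next emptiest were also in the left arm, from 2018067 to 2518066 with 9 and 6 peaks and from 3018067 to 3518066 with 12 and 6. The order is by the mean of the lists, and the bin from 3518067 to 4018066, with 10 and 8 peaks, was level with the last. From 3018067 to 3518066 all 6 replicate 2 peaks had a partner, as had 6 of the 12 in replicate 1. The densest bin lay in the right arm from 11518067 to 12018066, with 28 and 26 peaks that covered 58.04 kb and 67.95 kb. The next densest were central, from 8018067 to 8518066 with 27 and 26 peaks and from 8518067 to 9018066 with 26 and 22. Replicate 1 had more peaks than replicate 2 in 27 of the 30 full bins, as many in 1 and fewer in 2. Across these 30 bins the counts of the lists had a Pearson r of 0.93 and a Spearman rho of 0.92, which describes 2 lists of the same chromosome and carries no p. The lists thus ranked the bins nearly alike.

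Long stretches without any peak were concentrated in the left arm. Of the 19 stretches of chromosome II that held no peak of either list for at least 100 kb, 10 were in the left part, 5 in the centre and 4 on the right. Such stretches numbered 9 on I, 10 on III, 26 on IV, 49 on V and 52 on X. Those on the left of II added up to 1.58 Mb, or 31.2% of that part, against 11.2% of the centre and 10.1% of the right part. The longest ran from 1664567 to 1984915 (320 kb) and was the seventh longest over the 6 chromosomes. It was bounded on its left by a shared peak, with scores of 256 and 130, and on its right by a replicate 2 peak of score 58.5 without a partner. In replicate 1 alone the distance between neighbouring midpoints there was 378 kb, the largest on the chromosome. Just left of it, separated by that single shared peak, a further empty stretch ran from 1502938 to 1662704 (160 kb). The others of the 5 longest ran from 892249 to 1084670 (192 kb) and from 4050740 to 4237322 (187 kb) on the left, and from 14607702 to 14753480 (146 kb) in the right arm. The stretch that began at 4050740 ended at a peak scored 3100 in both lists.

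Outside the long empty stretches the parts were closer in density. With stretches of 100 kb or more taken out of the length, the left part had 36.3 and 30.9 peaks per Mb, the right 42.04 and 36.3 and the centre 50.9 and 41.2. The right-to-left ratio of these densities was 1.16 and 1.18, against 1.51 and 1.54 over the full length, and the ratio of centre to left was 1.40 and 1.33, against 1.81 and 1.72. Removing long gaps raises the density of the part that has more of them by construction.

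Neighbouring midpoints on chromosome II lay a median of 16.5 kb apart in replicate 1 (quartiles 6.37 and 38.9) and 19.7 kb in replicate 2 (8.11 and 43.0), a mean of 18.1 ± 2.24 kb (SD, n = 2). This was larger than on I and III and smaller than on IV, V and X in each list. By part it was 20.98, 14.2 and 17.8 kb from left to right in replicate 1 and 28.4, 18.01 and 19.3 kb in replicate 2. The left part was thus the most widely spaced in both lists. At short range the parts were closer to each other: 17.5%, 21.3% and 20.8% of neighbours lay within 5 kb in replicate 1, and 14.02%, 15.1% and 14.5% in replicate 2.

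**Figure D4:**
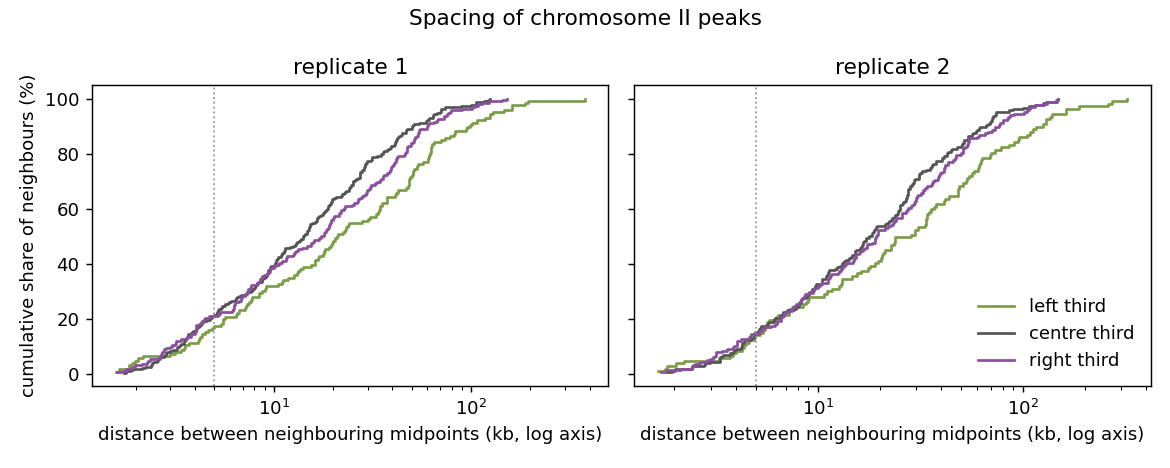
Cumulative share of neighbouring peak pairs (vertical, %) against the distance between their midpoints in kb (horizontal, log axis) for the left, central and right part of chromosome II, with 1 panel per replicate and a dotted line at 5 kb. The curves lie close together at 5 kb, where they reach 14.02% to 21.3%, and the left curve falls behind at longer distances, with medians of 20.98 and 28.4 kb.

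Close neighbours formed short runs. With midpoints within 5 kb joined, replicate 1 had 88 runs with 199 peaks (36.2% of its chromosome II peaks), of which 69 were pairs, 15 were triples and 4 had 4 peaks. Replicate 2 had 54 runs with 121 peaks (26.3%), of which 43 were pairs, 9 triples and 2 of 4 peaks. No run was longer. Runs of the other chromosomes are not given here, but close neighbours were not particular to II. The share of neighbours within 5 kb on II was 20.3% in replicate 1 and 14.6% in replicate 2. It was higher on I (25.6% and 20.2%) and III (21.8% and 17.5%) and similar on IV (19.8% and 14.9%). V (16.9% and 13.8%) and X (9.80% and 7.84%) had less. By part there were 17, 38 and 33 runs in replicate 1 and 11, 21 and 22 in replicate 2. Both runs of 4 in replicate 2 were runs of 4 in replicate 1 as well. The first spanned 14.6 kb in replicate 1, from 4692764 to 4707320 at the right end of the left part, and 14.8 kb in replicate 2. Its peaks scored 198, 1300, 3100 and 1055 in replicate 1 and 96.7, 872, 3100 and 843 in replicate 2, so the same peak was the highest in each list. The other ran from 10861531 to 10873628 in replicate 1 (12.1 kb), with scores of 338, 64.1, 586 and 544, and in replicate 2 they were 167, 53.3, 922 and 459. The lowest and the highest of these peaks were the same in both lists. A run of 4 in replicate 1 alone, from 5345941 to 5359373, held 3 peaks at 3100 around 1 of 57.7 that had no partner. The last, from 9933551 to 9944506, scored 50.2 to 404.

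Peak width on chromosome II was ordinary for the lists, with a median of 1586 bp in replicate 1 (middle 50% from 1355 to 1938) and of 1707 bp in replicate 2 (1499.75 to 2156.5), against 1554 and 1695 bp on the other 5 chromosomes. The narrowest were 1051 and 1214 bp. Left peaks were narrower than the rest in both lists. Medians ran 1442, 1626 and 1611 bp from left to right in replicate 1 and 1572.5, 1742 and 1784.5 bp in replicate 2. Width rose with score in both lists, from a median of 1258 and 1419.5 bp in the lowest to 2024.5 and 2102 bp in the highest quartile. Over paired peaks the Spearman rho of width with score was 0.63 and 0.64, across peaks that share a library. The left part also had fewer high scores, and the part of score in its narrower peaks was not tested.

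Broad peaks were few on the left. Peaks of 3 kb or more numbered 39 in replicate 1 (7.10% of its chromosome II peaks, exact interval 5.10 to 9.58) and 53 in replicate 2 (11.5%, 8.75 to 14.8), against 7.96% and 11.6% over all chromosomes, so their share was that of the lists. They held 17.6% and 25.6% of the peak bases. In replicate 1, 5 were left, 19 central and 15 right, and in replicate 2, 4, 25 and 24. Per peak of each part that was 3.94%, 8.26% and 7.81% in replicate 1 and 3.70%, 13.4% and 14.5% in replicate 2. The left interval, 1.02 to 9.21%, overlapped those of the centre (8.89 to 19.2%) and the right (9.49 to 20.7%) little or not at all in replicate 2, whereas in replicate 1 all 3 overlapped widely. Left parts of the other chromosomes in replicate 1 held 22 of 250 peaks (I), 17 of 178 (III), 17 of 184 (IV), 15 of 162 (V) and 4 of 110 (X). In replicate 2 they held 26 of 214, 20 of 157, 21 of 157, 14 of 119 and 6 of 85. II had 5 of 127 and 4 of 108. As a share of left peaks, only X was below II in replicate 1, and none was in replicate 2. All 53 in replicate 2 had a partner, and so did 36 of the 39 in replicate 1. The 3 without one scored 103 to 232.

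Pairs were not always broad in both lists. Each peak was matched with at most 1 of the other list, the largest overlap first, which gave 433 pairs. In 30 pairs both peaks reached 3 kb, in 22 only the replicate 2 peak did, and in 4 only the replicate 1 peak. Of the 22, 2 were left, 9 central and 11 right. Their replicate 1 peaks, below 3 kb by definition, had a median of 2680 bp and their replicate 2 peaks one of 3394.5 bp. In 6 of the 22 the replicate 2 peak overlapped 2 replicate 1 peaks. Over all pairs replicate 2 was the wider in 320 (73.9%), by a median of 80 bp (quartiles -8 and 195). The other 5 chromosomes were alike, with 71.2% of 2248 pairs wider in replicate 2 and a median of 82 bp.

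**Figure D5:**
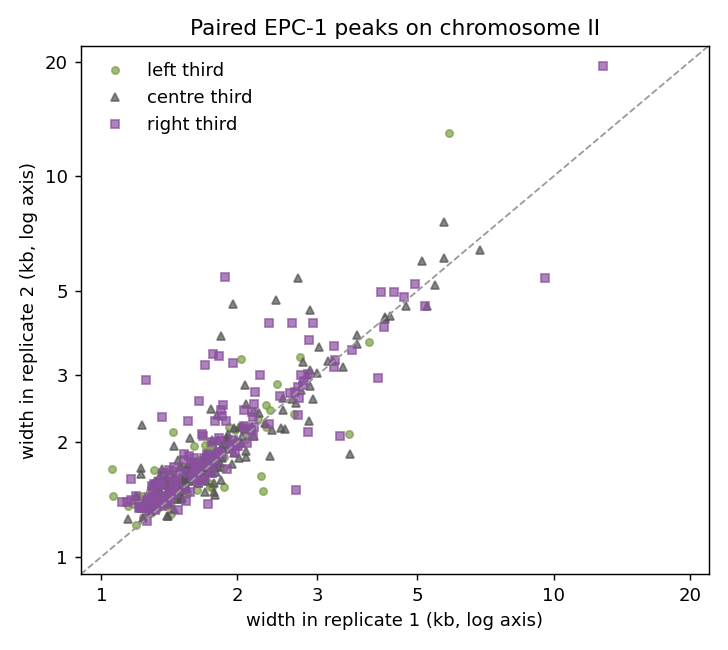
Width of each of the 433 paired peaks in replicate 1 (horizontal, kb, log axis) and replicate 2 (vertical, kb, log axis), marked by part of the chromosome, with a dashed line of equal width. Most points lie just above the line. The point at the top right is the region of 12862 and 19453 bp, and the left-part point far above the line is that of 5884 and 13017 bp.

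Peaks of 5 kb or more numbered 11 in each list (2.004% and 2.39%, against 1.79% and 2.68% over all chromosomes), and each list had 1 on the left, 6 in the centre and 4 on the right. In 8 pairs both peaks reached 5 kb. The 2 widest of replicate 1 scored 242 and 188, at percentiles 49.9 and 43.2 of its list, while the median of its 11 was 1536. The widest region of the chromosome ran from 10541077 to 10560529, near the left end of the right part. Replicate 2 had there 1 peak of 19453 bp with a score of 211, near the middle of its list. Replicate 1 had 2 peaks over the same bases, one of 12862 bp scored 242 and one of 5886 bp scored 1810, with 169 bp between them. A shared peak of ordinary width, from 10562458 to 10564228 in replicate 2, lay just to the right and scored 2372 and 1833. Of the high-scoring peaks, the one of 5886 bp was thus separate in replicate 1 only.

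Other very broad regions were cut differently by the lists. From 1232840 to 1246040, the only one on the left, a peak of 5884 bp scored 1536 in replicate 1, while replicate 2 had one of 13017 bp scored 677 that overlapped 2 replicate 1 peaks. From 14597570 to 14607268 the order was the reverse. There replicate 1 had 1 peak of 9568 bp with a score of 188, while replicate 2 had 2 peaks, of 5412 bp (832) and 4510 bp (408), 210 bp apart. In each of these 3 regions, the widest one included, the list that called 1 long peak gave it a lower score than the highest piece of the other list. Narrower split places went either way. From 3957987 to 3960383 the single replicate 2 peak scored 637, below the higher of 2 replicate 1 peaks (688 and 65.5). From 6489106 to 6492903 it scored 769, above both (541 and 156).

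The remaining widest regions, with 1 exception, were single peaks in both lists. From 5332680 to 5340256 the widths were 5719 and 7577 bp in replicates 1 and 2, with scores of 515 and 418. In the centre, 5 of the 10 widest regions lay within 1.13 Mb, from 8480004 to 9605135. This window was picked after the regions were seen, and it overlaps the densest central bins. The region from 8740976 to 8747909 was 6877 and 6403 bp wide and scored 1900 and 1545. The region from 8480004 to 8486091 was 5728 and 6088 bp wide and scored 1782 and 1820, with midpoints 11 bp apart. From 8783814 to 8790431 the paired peaks were 5124 and 5992 bp wide and both scored 3100, but the replicate 2 peak also overlapped a second replicate 1 peak, of 1525 bp and a score of 202, that ended 26 bp to the left of the first. From 9280782 to 9286239 they were 5458 and 5169 bp with scores of 3100 and 2561, and from 9599894 to 9605135 they were 5242 and 4571 bp with scores of 1372 and 1029. The last of the 10, from 10300306 to 10305516, was 4948 and 5211 bp wide and scored 3100 in both lists. In the 6 of the 10 that were single peaks in both lists, widths differed by at most 1858 bp.

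Splitting of neighbouring peaks was more frequent in replicate 1. It had 25 neighbours whose edges were less than 500 bp apart, of 548, and in 10 of these a single replicate 2 peak overlapped both. Replicate 2 had 14 such neighbours, of 459, and in 3 a single replicate 1 peak overlapped both. The smallest gaps, 8 bp in replicate 1 and 15 bp in replicate 2, both lie at one place, where replicate 1 had peaks from 7891463 to 7893963 and from 7893972 to 7895742 and replicate 2 had them from 7891737 to 7893911 and from 7893927 to 7895755. Both lists thus have 2 peaks at that place, with an overlap across the border, and it counts among the 10 and among the 3. In all, 11 replicate 2 peaks overlapped 2 replicate 1 peaks, and 3 replicate 1 peaks overlapped 2 of replicate 2. The same place is in both of these counts.

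Scores of paired peaks followed each other. Over the 433 pairs the Spearman rho was 0.91 and the Pearson r of log10 scores 0.93, a description across peaks of 2 libraries, and rho was 0.89, 0.92 and 0.91 from left to right. In the 396 pairs below 3100 in both lists, replicate 1 scored higher in 309 (78.03%), against 75.2% of such pairs on the other 5 chromosomes. The median factor over the 396 was 1.28 (quartiles 1.03 and 1.72). That factor was 1.33 on the left, 1.28 in the centre and 1.24 on the right, close to the 1.30 of the other 5 chromosomes. Midpoints of pairs lay a median of 48 bp apart.

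Peaks with a score of 3100 or more numbered 37 in replicate 1 (6.74%) and 32 in replicate 2 (6.96%), against 6.48% and 7.27% over all chromosomes. The 32 of replicate 2 were all paired with peaks at or above 3100 in replicate 1, 6 of them left, 18 central and 8 right. In replicate 1 the parts held 6, 21 and 10. Per peak of each part that was 4.72%, 9.13% and 5.21% in replicate 1 and 5.56%, 9.68% and 4.82% in replicate 2. Left and right were thus close in share. The 32 pairs were 1539 to 5558 bp wide (mean of the pair, median 2079.5). As many as 7 of the 32 lay within 347 kb at the left edge of the centre, from 5345773 to 5692385. This place was picked as the 500 kb window with the most of them, so its high count follows from the choice. On the left the tied pairs were at 254439 to 256195, at 3807470 to 3809098, at 4237323 to 4238879, at 4700421 to 4702672 and at 2 sites between the last and 5100004. The region from 14398597 to 14400976 in the right arm was the only one of the 32 above 3100, at 3214 in replicate 1 and 3100 in replicate 2. A further replicate 1 peak above 3100, from 11777062 to 11778869, had a partner scored 2825. Among the tied peaks the score gives no order.

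A few pairs differed in score by over 4 times. Toward replicate 1 the highest ratios were 4.62 from 12037394 to 12043483 (scores 2481 and 537), 4.21 from 4945090 to 4947757 (273 and 64.7) and 4.05 from 5080699 to 5082262 (279 and 68.8). Toward replicate 2 they were 4.93 from 6489106 to 6492903 (156 and 769), 4.43 in the broad region from 14597570 (188 and 832) and 4.23 from 8441011 to 8443235 (59.4 and 252). In the first of each direction, and in the broad region, a peak of one list overlapped 2 of the other, so the ratio depends on which piece was paired. The remaining 3 were pairs of single peaks.

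Peaks without a partner were low and narrow. The 106 of replicate 1 had a median score of 86.2 and a median width of 1306 bp, against 357 and 1654 bp in the 443 shared. The 25 of replicate 2 had a median score of 72.2 and width of 1551 bp, against 264 and 1718 bp. Among peaks at or above the median score of their list, every one on chromosome II was shared, 276 in replicate 1 and 227 in replicate 2, against 99.4% and 99.9% of such peaks over all chromosomes, so this was the share of the lists. In the lowest quartile 58 of 126 replicate 1 peaks (46.03%, exact interval 37.1 to 55.1) and 93 of 114 replicate 2 peaks (81.6%, 73.2 to 88.2) were shared, against 39.6% and 83.6% over all chromosomes. By part, 27, 44 and 35 replicate 1 peaks lacked a partner from left to right, and 78.7%, 80.9% and 81.8% were shared. The centre was thus not the most shared part in replicate 1. In replicate 2, 10, 3 and 12 peaks lacked a partner. There 98.4% of central peaks were shared (95.4 to 99.7), against 90.7% on the left (83.6 to 95.5) and 92.8% on the right (87.7 to 96.2).

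The highest-scoring peaks without a partner stood near or below the middle of their lists. In replicate 1 they lay from 14042886 to 14044989 (score 242), from 7756581 to 7759079 (235), from 3161729 to 3165378 (232), from 9605717 to 9607522 (231) and from 7663687 to 7665086 (209). Those scored 242, 231 and 209 had a replicate 2 peak at 1.05 to 3.66 kb, while those scored 235 and 232 had none within 41.99 kb. The peak scored 232, which was 3650 bp wide, stood between 2 further replicate 1 peaks at distances of 9 and 415 bp, in the sparse stretch. In replicate 2 the highest were from 1455528 to 1458089 (155), from 11333511 to 11335040 (131), from 11842948 to 11845210 (114), from 13898354 to 13899994 (108) and from 13409654 to 13411124 (94.2). The nearest replicate 1 peak was 0.80 kb from the peak scored 108 and 9.92 to 35.3 kb from the others.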

How the data were processed

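EPC-1 ChIP-seq of whole L3 larvae is represented by 2 peak lists, replicates 1 and 2. BWA was the aligner, per the submitters' processing notes, and coordinates are WormBase WS190, per the file headers. The authors called peaks on each immunoprecipitation. Peak names in the files cite MACS and the source column MA2C. For settings, use of the input and depth, values were not given in the sources used here. A score is deposited by the authors with each peak and starts near 50. Its scale is not stated, and many peaks are tied at 3100.

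Lists were kept apart and positions read 1-based. Peaks were placed by midpoint in 3 equal parts of the span from lowest start to highest end over both lists, and in bins of 500 kb from its left end. Sharing means 1 bp or more of overlap. Shares have exact Clopper-Pearson 95% intervals, which treat peaks as independent. No p-value was computed: 2 lists of 1 group allow no test between groups, and positions were not resampled. The named regions are the 10 widest pairs, 5 pairs by mean score percentile (ties, which cover all but the first, taken by position), the 5 highest unpartnered peaks per list, the 3 highest score ratios each way, the 5 longest empty stretches, the 3 densest and 3 emptiest bins, and the longest runs. The regions and rules were chosen with earlier results of these data known. Overlap and division into parts were checked on simulated data, in which all 360 copied peaks of 450 were paired. The simulated peaks were well separated, so this checks the code and does not cover split or closely spaced peaks. Alternatives covered scores, sharing, list length, span, bases, bin width and each list alone. Intervals came from SciPy 1.17.1 and plots from matplotlib 3.10.9, under Python 3.11.15 with pandas 2.3.3 and NumPy 2.4.6.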

Additional observations from a re-analysis of the deposited data

How the results depend on the processing

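Right exceeded left under every alternative run. The mean right-to-left ratio of 1.52 became 1.71 with scores at or above the median, 2.32 in the highest quartile, 1.57 with shared peaks only, 1.47 with equal list lengths, 1.55 with the span of each list alone and 1.82 in covered bases. Settings chosen after the data were seen gave 1.54 without the emptiest bin, 1.40 with 2 equal parts and 1.55 with the outermost of 5. Single lists gave 1.51 to 1.54 for this ratio, 40.4 to 41.9% for the central share, 460 to 549 peaks, widths of 1586 to 1707 bp, distances of 16.5 to 19.7 kb and 39 to 53 peaks of 3 kb or more. The central share of 41.2% rose to 44.4% at or above the median score and 50% in the highest quartile. The same score settings left 251.5 and 123 peaks per list by construction, with median widths of 1870.5 and 2063.25 bp against 1646.5, and median distances of 35.04 and 64.8 kb against 18.1. Shared peaks only gave 20.6 kb. Broad peaks fell from 46 to 28.5 in the highest quartile, and 11 reached 5 kb. The shared shares of 80.7% and 94.6% became 74.3% and 88.7% with midpoints within 500 bp, 100% and 100% at or above the median score and 88.7% and 87.4% with equal list lengths. Of the full bins in the left part, 90% (9 of 10) lay below the median bin, as did 80% (16 of 20) at 250 kb and 100% (5 of 5) at 1 Mb. The cause of these moves was not tested beyond what the settings remove. No paired analysis was possible because the input samples, the only other group, were not analysed here. Where a weak peak is missing from a list, the unknown depth leaves its absence undecided.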
